A study of Mus musculus with 179 samples.

Results

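Among single cells from mouse pancreatic organoids, 40 epithelial cells with a high summed level of 10 target genes of the coactivator YAP were set against 40 with a low one. The cells were chosen by this measured sum alone, and the rule genes were Ankrd1, Ccn1, Ccn2, Amotl2, Ajuba, Lats2, Ptpn14, Tead1, Nuak2 and Axl. Their summed level, counted in unique molecular identifiers (UMIs), which tag single molecules, per 1000000 UMIs of the cell (CPM), was at least 2500 CPM in the YAP-target-high cells and under 450 CPM in the YAP-target-low cells. The other cells of the series were 75 between the limits, 18 left out for fewer than 40000 UMIs, and 6 left out as rich in fibroblast transcripts. On both sides together, 12 cells lay within 10% of the upper limit and 2 within 10% of the lower one. The sets are the ends of a measured range, and whether they hold distinct types of cell was not tested. The highest low cells had 382, 394 and 403 CPM and the next cells above the limit 473, 484 and 514 CPM. At the upper limit, the last cells outside had 2392, 2399 and 2499.5 CPM and the first inside 2538, 2545 and 2621 CPM.

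The cells came from the exocrine pancreas of wild type C57BL6 mice, were dissociated, passed over a density gradient, and grown for 9 days as organoids in Matrigel, a basement membrane gel. Smart-seq3, a plate method that counts molecules by UMI, read their RNA within a protocol that also profiles methylation and accessibility of DNA, which were not analysed here. All cells share 1 condition, genotype, strain and time, and no animal or culture is named for a cell. Cells are therefore not replicates, no test was possible between sets of them, and the intervals below are exact 95% Poisson (levels) or binomial (shares) intervals that cover counting error only.

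YAP and its relative TAZ (gene Wwtr1) are coactivators without DNA-binding domains of their own, and act on genes mainly through the TEAD transcription factors. The Hippo kinases, which include LATS1 and LATS2, phosphorylate them and hold them in the cytoplasm, whereas cell spreading, stiff matrix and actin tension favour their presence in the nucleus. In the exocrine pancreas this pathway is known for its part in duct formation and in the conversion of acinar cells to duct-like cells after injury.

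The rule fixed the levels of its own genes, which are given only to show what the sets are. Ankrd1, a muscle-type ankyrin repeat protein, ranged from 0 to 10414 CPM (median 2441) in high and from 0 to 182.5 CPM (median 21.4) in low cells. Ccn2, a secreted matricellular protein also called connective tissue growth factor, ranged from 0 to 2183 CPM (median 759) in high and from 0 to 143.5 CPM (median 13.1) in low cells. Its relative Ccn1 ranged from 50.9 to 1520.0 CPM (median 428) in high and from 0 to 230.2 CPM (median 13.96) in low cells. Ankrd1 alone made up a median of 57.8% of the rule sum in high cells and 12.2% in low cells, and 1 high cell had no Ankrd1 UMI. Tead1, a DNA-binding partner of YAP, had medians of 194 CPM in high and 82.9 CPM in low cells. The angiomotin Amotl2, which holds YAP at junctions and the membrane, had medians of 73.3 and 0 CPM. Medians of the LIM protein Ajuba were 90.4 and 16.3 CPM, and those of the phosphatase Ptpn14 were 86.5 and 29.5 CPM. The kinase Lats2 (13.5 against 0 CPM), the kinase Nuak2 (18.1 against 10.8 CPM) and the receptor Axl (0 in both) added little. Among the other 9 rule genes Nuak2 followed Ankrd1 least, with a Spearman rho of 0.07 over all kept cells, against 0.61 for Ccn2 and 0.58 for Ccn1. These cells share a library type and a common total, and the rho is a description only.

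**Figure D1:**
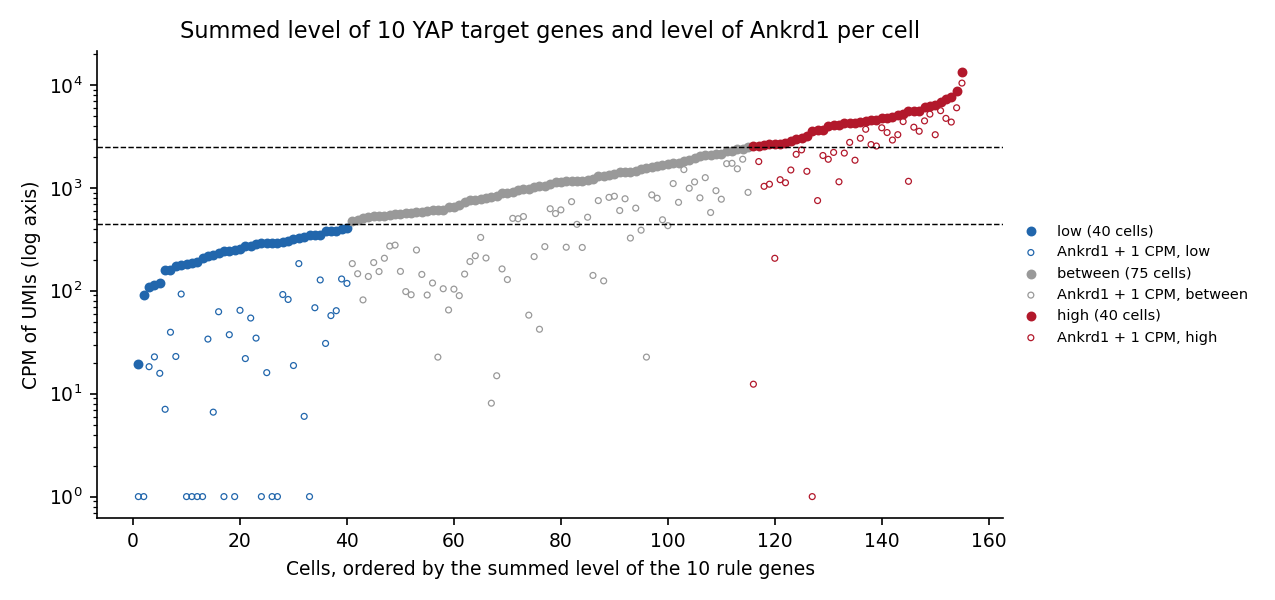
The 40 low, 75 between and 40 high cells are ordered on the x axis by the summed level of the 10 rule genes (filled points, CPM on a log axis), with Ankrd1 plus 1 CPM as open points and the limits of 450 and 2500 CPM as dashed lines. The sum rises from 19.5 to 13348 CPM with no step at either limit, and the Ankrd1 points approach the sum in most of the 40 high cells.

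Windows before the gene starts were searched for the core letters that TEAD factors bind. Printed below are the 250 bases before the starts of 3 rule genes and of Edn1, the gene outside the rule with the highest ratio, from RefSeq (build GRCm38.p6), each 5′ to 3′ on the gene's strand. Capitals mark the TEAD core letters GGAATG or their reverse complement CATTCC.
Ankrd1 (chr19:36119845-36120094, minus strand): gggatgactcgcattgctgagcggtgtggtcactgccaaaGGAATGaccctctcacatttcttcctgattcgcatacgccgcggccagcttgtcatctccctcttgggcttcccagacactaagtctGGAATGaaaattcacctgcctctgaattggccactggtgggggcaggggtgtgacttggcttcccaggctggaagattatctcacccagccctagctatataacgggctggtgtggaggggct
Ccn1 (chr3:145649986-145650235, minus strand): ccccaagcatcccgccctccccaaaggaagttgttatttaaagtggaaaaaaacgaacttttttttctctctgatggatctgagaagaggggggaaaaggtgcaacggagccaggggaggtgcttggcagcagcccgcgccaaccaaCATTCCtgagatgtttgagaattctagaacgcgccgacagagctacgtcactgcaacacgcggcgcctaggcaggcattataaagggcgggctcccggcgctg
Amotl2 (chr9:102717554-102717803, plus strand): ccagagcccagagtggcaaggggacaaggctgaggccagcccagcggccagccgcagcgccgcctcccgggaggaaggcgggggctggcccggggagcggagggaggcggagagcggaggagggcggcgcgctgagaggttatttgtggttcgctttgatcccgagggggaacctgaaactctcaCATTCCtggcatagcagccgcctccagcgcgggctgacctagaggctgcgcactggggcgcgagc
Edn1 (chr13:42301226-42301475, plus strand): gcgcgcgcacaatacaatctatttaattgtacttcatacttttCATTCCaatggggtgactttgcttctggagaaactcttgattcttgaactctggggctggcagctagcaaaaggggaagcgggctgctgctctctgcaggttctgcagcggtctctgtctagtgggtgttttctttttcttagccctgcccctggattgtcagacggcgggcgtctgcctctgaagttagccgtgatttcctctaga
Windows of 300 bases add the first 50 bases of the gene. In these, the letters stood on 1 strand or the other in 7 of the 7 rule genes with a window. Ccn2, Nuak2 and Tead1 had no window here. The rule genes are known YAP targets, so this count was largely set by their choice. The share with the letters was 14.7% of all 32851 windows and 14.1% of the 6045 tested genes with a window. Among genes outside the rule that were higher in high cells it was 17.7%, and among those that were lower it was 18.8%. Of the 15 higher genes named for their ratios, Edn1 alone had the TEAD letters. The others either had no window or, like Csf1, Cxcl1, Inhba, Lamb1, Timp3 and Wnt7a, a window without them. The letters TGANTCA, the core bound by AP-1 factors and the same on both strands, stood in no rule gene window, in 5.97% of tested genes, in 11.4% of the higher and in 11.5% of the lower genes. A match of letters describes a window and is not shown to be a bound site.

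Both sets were deep and similar in depth. UMIs per cell ran from 41560 to 309269 (median 177936) in high cells and from 47789 to 329522 (median 170540) in low cells. After each cell was thinned to 40000 UMIs, a median of 8220 genes had a UMI in high cells and 7799.5 in low cells, against 11982 and 11425 unthinned. Mitochondrial genes held medians of 1.03% and 0.940% of UMIs. Both sets were drawn from all 8 blocks of 24 cell numbers, with 21 high and 23 low cells numbered up to 96 and 19 and 17 numbered from 97. Although labelled acinar cells, both sets carried little of the acinar enzyme list, with medians of 159.2 CPM summed over 24 genes in high cells and 188.3 CPM in low cells. The low set had 1 exception, a cell at 288399 CPM. The epithelial list of keratins and junction genes had medians of 14432 and 13813 CPM. The summed fibroblast list (10 genes) had a median of 0 in both sets, with highest cells at 25.3 CPM among high and 171.8 CPM among low cells. Endothelial markers stood at 15.999 and 14.1 CPM pooled, and immune markers at 5.57 and 5.48 CPM.

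Outside the rule, genes with more RNA in the high cells included the matrix genes Fn1 and Lamb1, the chemokine Cxcl1, the activin subunit Inhba and the actin-binding Cnn3. Genes with less RNA there included the trefoil peptides Tff1, Tff2 and Tff3, the surface protein Ly6d and the glutathione transferase Gsta1. A gene was counted as higher when the pooled level and the median level of the high cells were both at least 2 times those of the low cells, with 5 CPM added to each, and as lower in the reverse case. Among 8043 nuclear genes with a pooled level of at least 20 CPM, 220 (2.74%) were higher and 1.52% were lower in the high cells. The median log2 ratio over all tested genes was 0.06. None of the higher or lower genes had levels that did not overlap between the sets. In the median higher gene, 78.9% of the pairs of 1 high and 1 low cell had more in the high cell, and in the median lower gene 21.4% did. The ratios kept their direction among cells numbered up to 96 and among cells numbered from 97 for every higher and every lower gene, and reached 2 in both number ranges for 71.4% of the higher and 72.95% of the lower genes. Both ranges are parts of the cells from which these genes were called. Their agreement was thus largely built in and is no replication.

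**Figure D2:**
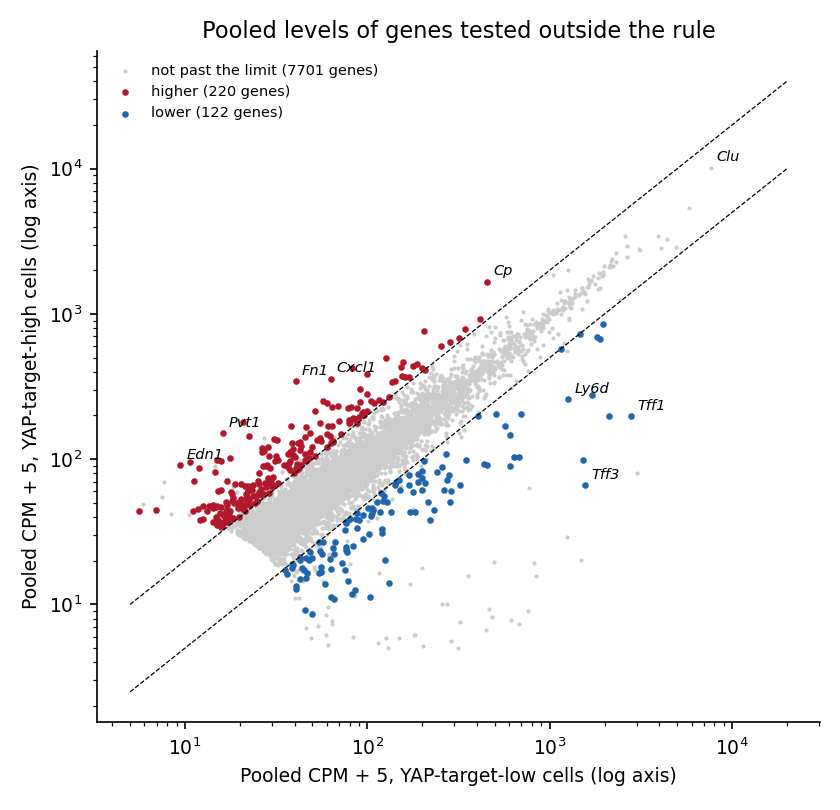
Each point is 1 of the 8043 tested genes, with the pooled CPM plus 5 of the 40 low cells on the x axis and of the 40 high cells on the y axis, both log axes, and dashed lines at ratios of 2. The 220 higher genes are red and the lower genes blue. Grey points far below the lines are genes whose median level was not past the limit. Among them are digestive enzymes held mostly by 1 low cell.

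Neither coactivator passed the limit. Yap1 ranged from 32.3 to 188.3 CPM (median 98.9) in high and from 5.56 to 146.6 CPM (median 72.1) in low cells, and pooled levels were 108.3 CPM (100.7 to 116.3) in high and 79.9 CPM (73.3 to 86.9) in low cells, a log2 ratio of 0.42. The sets overlapped along most of their range. Wwtr1, which encodes TAZ, ranged from 0 to 295 CPM (median 72.01) in high and from 0 to 249.5 CPM (median 38.3) in low cells, with a log2 ratio of 0.85. Tead2, another TEAD factor, was the only 1 of 5 tested factors and cofactors past the limit: it ranged from 0 to 257 CPM (median 60.3) in high and from 0 to 232 CPM (median 12.6) in low cells, and pooled levels were 69.6 CPM (63.5 to 76.03) in high and 23.7 CPM (20.2 to 27.7) in low cells. A low cell held 22.5% of the low set's Tead2 UMIs, and the sets overlapped. Tead4 showed a log2 ratio of 0.11, and Tead3 was below the minimum level.

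Of 18 tested Hippo kinases and upstream regulators, 4 were higher and 0 lower, with a median log2 ratio of 0.38. Wwc1 (0.92), Wwc2 (0.74), Strn3 (0.61), Fat1 (0.49), Taok3 (0.14) and Limd1 (-0.04) did not pass the limit. Frmd6, a FERM-domain protein that acts upstream of the Hippo kinases, ranged from 0 to 440.5 CPM (median 46.1) in high and from 0 to 54.8 CPM (median 5.39) in low cells, a log2 ratio of 1.96. It had 14 high cells above the highest low cell. Map4k4, a kinase that can activate LATS, ranged from 52.9 to 771 CPM (median 168.6) in high and from 19.9 to 338 CPM (median 78.8) in low cells (log2 ratio 1.16), and Amotl1, a relative of Amotl2, from 17.2 to 697 CPM (median 198) in high and from 11.8 to 370.3 CPM (median 82.4) in low cells (log2 ratio 1.15). The fourth was the Ajuba relative Wtip (log2 ratio 1.36). Several of these 4 higher genes restrain YAP by known biochemistry, and they had their higher levels in the cells with more target RNA.

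Other published YAP targets gave 6 higher and 0 lower genes of 19 tested (31.6%), with a median log2 ratio of 0.71. Such a list shares its basis with the rule and is no independent evidence of direction. Edn1 (ENSMUSG00000021367, chr13:42301476-42307990, GRCm38), the precursor of the vasoconstrictor peptide endothelin-1, ranged from 0 to 445 CPM (median 36.4) in high and from 0 to 51.6 CPM (median 0) in low cells. After thinning, 67.5% of high cells (50.9 to 81.4%) and 10% of low cells (2.79 to 23.7%) had an Edn1 UMI, against 80% and 25% unthinned. Its pooled levels were 85.7 CPM (78.99 to 92.8) in high and 4.45 CPM (3.00 to 6.35) in low cells, a log2 ratio of 3.26. Most low cells had none, and 16 high cells exceeded the highest low cell. Thbs1 (thrombospondin 1, a matrix glycoprotein that can activate latent TGF-β) ranged from 0 to 283 CPM (median 51.6) in high and from 0 to 167.8 CPM (median 0) in low cells, with pooled levels of 76.99 CPM (70.6 to 83.8) in high and 9.63 CPM (7.44 to 12.3) in low cells and a log2 ratio of 2.49. The stress-response gene Gadd45b ranged from 0 to 447 CPM (median 102.97) in high and from 0 to 96.8 CPM (median 21.2) in low cells (log2 ratio 2.09). Tgfb2, a TGF-β ligand, ranged from 0 to 274 CPM (median 29.3) in high and from 0 to 61.8 CPM (median 0) in low cells (log2 ratio 1.99). For Gadd45b 22 and for Tgfb2 14 high cells were above every low cell. Fjx1, a secreted relative of fly four-jointed, had a log2 ratio of 1.26.

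**Figure D3:**
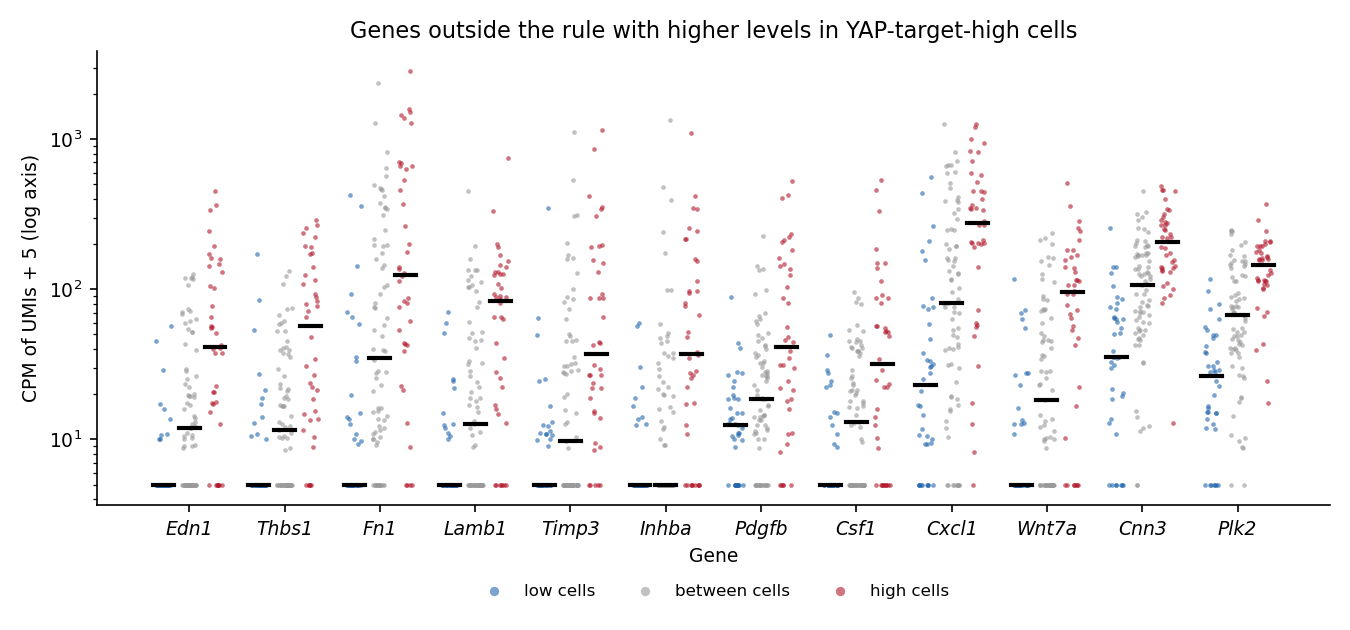
Levels of 12 genes outside the rule that were higher in high cells: each point is a cell, on a log axis of CPM plus 5, for the 40 low (blue), 75 between (grey) and 40 high (red) cells, with bars at the medians. The medians of the high cells are above those of the low cells for all 12 genes, and the sets overlap for each.

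Matrix genes held some of the largest differences. Of 20 tested laminins and other matrix genes 6 were higher and 0 lower, and the median log2 ratio was 0.54. Fn1 (ENSMUSG00000026193, chr1:71585520-71653200, GRCm38) encodes fibronectin and ranged from 0 to 2826 CPM (median 120.1) in high and from 0 to 419 CPM (median 0) in low cells. Pooled levels were 339.5 CPM (326 to 353) in high and 35.4 CPM (31.1 to 40.2) in low cells, a log2 ratio of 3.09. Of high cells 13 exceeded the highest low cell, while 4 had no Fn1 UMI. Lamb1 (ENSMUSG00000002900, chr12:31265234-31329644, GRCm38), the laminin β1 chain of basement membranes, ranged from 0 to 746 CPM (median 78.5) in high and from 0 to 65.8 CPM (median 0) in low cells, with a log2 ratio of 2.86. For Lamb1, 21 high cells were above every low cell. Timp3, an inhibitor of metalloproteinases, ranged from 0 to 1156 CPM (median 31.9) in high and from 0 to 342 CPM (median 0) in low cells (log2 ratio 2.69), and 1 low cell held 64.4% of the low set's UMIs. The collagen IV chains Col4a1 and Col4a2, which lie side by side in the genome, had log2 ratios of 1.15 and 1.03. Lama3 had one of 1.11, which came from cells numbered up to 96 (1.60) more than from the others (0.11). Outside the list, the membrane metalloproteinase Adam12 was detected in 22 high and 3 low cells, with pooled levels of 39.1 CPM (34.6 to 44.1) in high and 0.593 CPM (0.162 to 1.52) in low cells. Fibronectin and collagen are also made by fibroblasts, whose defining markers (above) had medians of 0 in both sets. The 6 cells rich in fibroblast transcripts had been left out beforehand, and the source of this RNA was not tested.

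Some genes of adhesion and the actin cytoskeleton were higher, by smaller ratios. Of 19 tested focal adhesion and integrin genes 4 were higher, and of 30 actin and SRF target genes 5 were higher, with median log2 ratios of 0.50 and 0.36 and 0 lower in both. Cnn3 (calponin 3, an actin-binding protein) ranged from 7.88 to 481 CPM (median 201) in high and from 0 to 252 CPM (median 30.3) in low cells, with pooled levels of 209 CPM (198 to 219.5) in high and 46.98 CPM (41.95 to 52.5) in low cells and a log2 ratio of 2.04. In 94.1% of pairs the high cell had more. Cald1 (caldesmon) ranged from 19.6 to 1666 CPM (median 339.7) in high and from 0 to 650.0 CPM (median 52.2) in low cells (log2 ratio 1.95), and Actn1, which crosslinks actin at adhesions, from 155.1 to 2215 CPM (median 689) in high and from 62.8 to 959.6 CPM (median 301) in low cells (log2 ratio 1.20). Flna (filamin A) and Filip1l had log2 ratios of 1.09 and 1.25. The actin gene Acta1 ran the other way, with a pooled log2 ratio of -3.05, the largest by size on the list, but its median was not past the limit. Summed over the actin list, pooled levels were 15712 CPM in high and 14299 CPM in low cells. Itgb6, the β chain of an integrin that binds fibronectin and latent TGF-β, ranged from 7.48 to 449 CPM (median 113.5) in high and from 0 to 233 CPM (median 29.9) in low cells, a log2 ratio of 1.37. The adhesion proteins Tns1 and Tns3 (tensins) and Fermt2 (kindlin-2) had log2 ratios of 2.13, 1.40 and 1.56, and that of Tns1 was 0.72 in cells with at least 1000 CPM of the G2/M list.

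A few secreted signals were higher. Inhba (ENSMUSG00000041324, chr13:16011851-16031621, GRCm38), the activin βA subunit, ranged from 0 to 1099.7 CPM (median 32.2) in high and from 0 to 54.6 CPM (median 0) in low cells, with pooled levels of 90.7 CPM (83.8 to 98.05) in high and 5.63 CPM (3.99 to 7.73) in low cells and a log2 ratio of 3.17. Its relative Tgfb3 had a log2 ratio of 1.28, and these were the 2 higher genes of 16 tested TGF-β and BMP genes (median 0.49). Pdgfb, a growth factor for mesenchymal cells, ranged from 0 to 522 CPM (median 36.5) in high and from 0 to 83.9 CPM (median 7.45) in low cells (log2 ratio 2.61). Wnt7a, a Wnt ligand, ranged from 0 to 505 CPM (median 90.8) in high and from 0 to 112.7 CPM (median 0) in low cells (log2 ratio 2.53), and the Wnt receptor Fzd1 had a log2 ratio of 1.65. They were the 2 higher genes of 11 tested on the Wnt list, which had a median of -0.04. Of 18 genes of EGF receptor ligands and MAPK feedback 3 were higher (median 0.11). Hbegf, a ligand of the EGF receptor, ranged from 42.6 to 929.9 CPM (median 442) in high and from 43.5 to 668 CPM (median 153.9) in low cells (log2 ratio 1.27). Nrg1, a ligand of ERBB3 and ERBB4, had a log2 ratio of 1.94 and the ETS factor Etv4 one of 1.04.

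Of 11 tested cytokine and chemokine genes 6 were higher (54.5%) and 0 lower, with a median log2 ratio of 1.001. Cxcl1, which attracts neutrophils, ranged from 0 to 1257 CPM (median 271) in high and from 0 to 554 CPM (median 18.2) in low cells, with pooled levels of 354 CPM (340.2 to 368) in high and 57.95 CPM (52.3 to 63.99) in low cells and a log2 ratio of 2.51. Only 9 high cells exceeded the highest low cell. Csf1, the growth factor of macrophages, ranged from 0 to 534 CPM (median 26.7) in high and from 0 to 44.7 CPM (median 0) in low cells (log2 ratio 2.67), with 18 high cells above all low cells. Tnfaip3, a feedback inhibitor of NF-κB, ranged from 20.8 to 1043 CPM (median 177.5) in high and from 0 to 450.1 CPM (median 31.6) in low cells (log2 ratio 1.75). The complement gene C3 and the chemokine Cxcl16 had log2 ratios of 1.17 and 1.001. Cxcl2 is a close relative of Cxcl1 with a log2 ratio of 1.63, but 1 low cell held 61.4% of the low set's UMIs, and the ratio was 3.22 among cells with under 1000 CPM of the G2/M list and -0.22 among the others.

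Immediate early and stress genes were higher too. Of 22 tested genes of the AP-1 and immediate early list 6 were higher and 0 lower (median log2 ratio 0.64). Klf6, a zinc-finger factor induced by injury, ranged from 197 to 1448 CPM (median 673) in high and from 30.4 to 1336 CPM (median 251) in low cells, a log2 ratio of 1.10. Atf3, Nr4a1, Csrnp1 and Dusp1 had log2 ratios of 1.47, 1.72, 1.42 and 1.06. Myc (chr15:61985391-61990374) ranged from 0 to 205 CPM (median 39.2) in high and from 0 to 87.5 CPM (median 4.49) in low cells (log2 ratio 1.68). Its neighbour on the same strand, the long noncoding RNA gene Pvt1 (ENSMUSG00000097039, chr15:62037986-62378096, GRCm38), ranged from 0 to 792 CPM (median 49.7) in high and from 0 to 65.2 CPM (median 3.95) in low cells, with pooled levels of 146.4 CPM (137.6 to 155.7) in high and 11.1 CPM (8.74 to 13.9) in low cells and a log2 ratio of 3.23. Pvt1 thus had the second highest ratio outside the rule. Another noncoding gene, 2610307P16Rik, ranged from 0 to 1158 CPM (median 66.5) in high and from 0 to 245 CPM (median 0) in low cells (log2 ratio 3.13). Among 12 p53 targets and cell cycle inhibitors 12 had log2 ratios above 0, as did 4664 of all 8043 tested genes. Of the 12, 2 were past the limit. The first, the kinase Plk2, ranged from 12.5 to 367 CPM (median 140.4) in high and from 0 to 112.5 CPM (median 21.3) in low cells, with 94.8% of pairs higher in the high cell, the largest such share among the 220 genes. The other was Bbc3, which encodes the death protein PUMA (log2 ratio 1.28). Mdm2 had a pooled log2 ratio of 1.36, but its median was not past the limit. The list median was 0.69, but 1.02 in cells with under 1000 CPM of the G2/M list and 0.15 in the others, where Bbc3 stood at 0.64. Cdkn1a, the cell cycle inhibitor p21 and the best known p53 target, had a log2 ratio of 0.31; it was chosen after its values were seen.

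**Figure D4:**
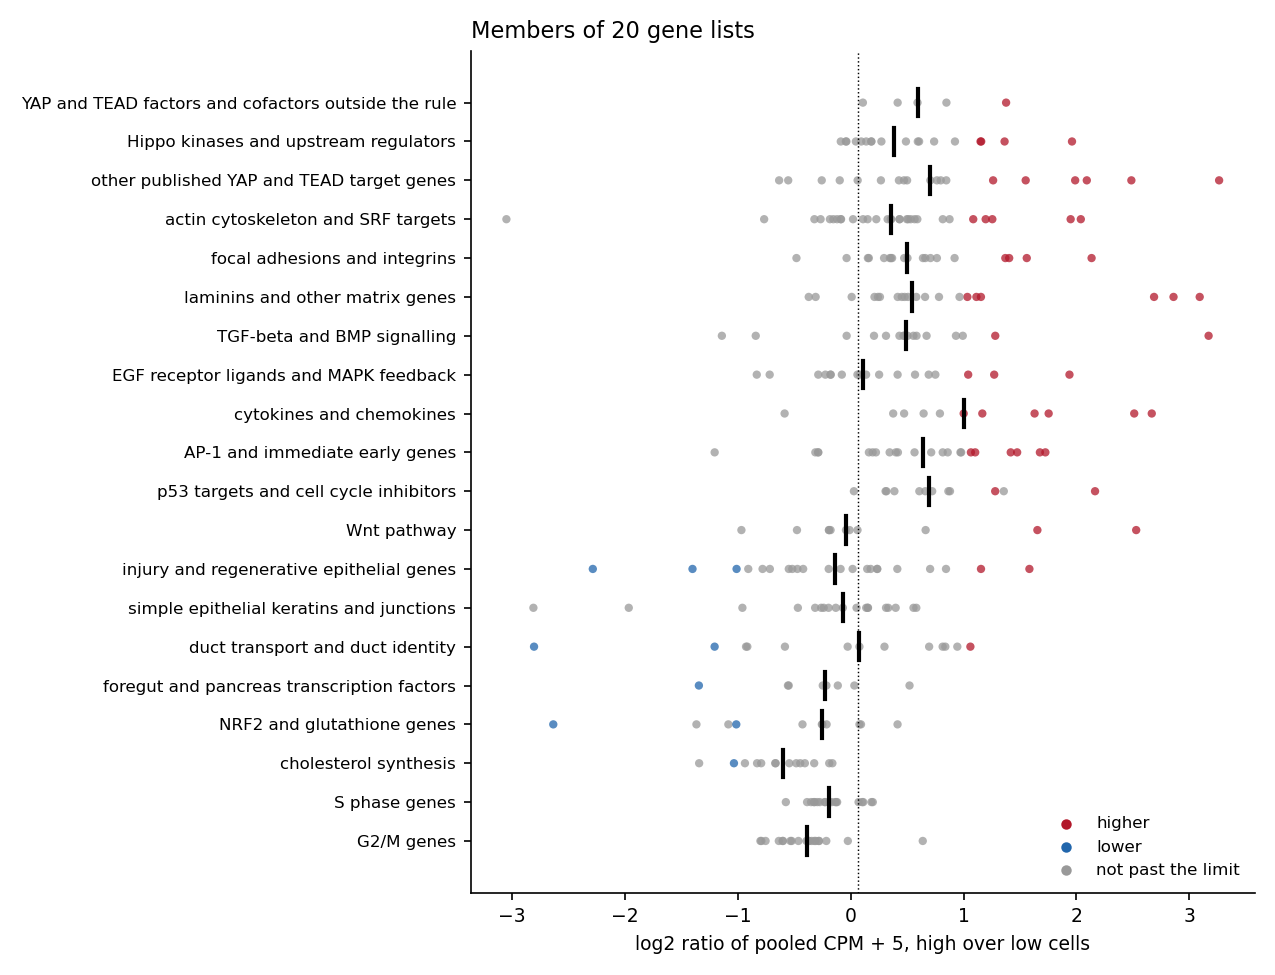
Log2 ratios of pooled CPM plus 5 (high over low cells, x axis) for the tested members of 20 gene lists, with higher genes in red, lower genes in blue, list medians as bars and the median of all tested genes, 0.06, as a dotted line. Medians run from -0.60 for cholesterol synthesis to 1.001 for cytokines and chemokines.

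None of 19 tested keratins and junction genes passed the limit in either direction, with a median log2 ratio of -0.07. Krt19, the common duct keratin, ranged from 319 to 2747 CPM (median 1090.5) in high and from 426 to 5047 CPM (median 1909) in low cells, with pooled levels of 1239 CPM (1213 to 1265) in high and 2412 CPM (2375 to 2449) in low cells and a log2 ratio of -0.96, just short of the limit. Krt20 and the claudin Cldn18 had pooled log2 ratios of -1.97 and -2.81, beyond that of Krt19, but their medians were not past the limit. Without the low cell richest in enzymes and the 5 low cells with at least 10000 CPM of the gastric list, these ratios were -1.57 and -0.15. Krt7 and Spp1 (osteopontin) had log2 ratios of -0.52 and 0.66. Clu, a secreted chaperone known from regenerating epithelia, ranged from 3512 to 27648 CPM (median 9773) in high and from 2397 to 23191 CPM (median 6121) in low cells, a log2 ratio of 0.41. Of 22 injury and regenerative genes 2 were higher, the junction protein Cldn4 (1.15) and the transcription factor Sox4 (1.58). The other direction held 3 members, the surface protein Ly6d (-2.28), the mucin-like Dmbt1 (-1.40) and the cornified envelope gene Sprr1a (-1.01). Both tested members of the list of mesenchymal genes and cadherins, Sparc (2.08) and Cdh6 (1.29), were higher. The other 10 members were below the minimum level, and the mesenchymal filament gene Vim had 1.71 CPM pooled in high and 0 in low cells.

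The lower genes included 3 trefoil peptides, which gastric and intestinal mucous cells secrete, and Tff3 had the lowest pooled ratio of all lower genes. Tff1 (ENSMUSG00000024032, chr17:31161395-31165277, GRCm38) ranged from 67.7 to 619 CPM (median 183.3) in high and from 77.9 to 47145 CPM (median 455) in low cells, with pooled levels of 192.4 CPM (182.3 to 203) in high and 2788 CPM (2748 to 2828) in low cells and a log2 ratio of -3.82. Tff3 ranged from 0 to 489 CPM (median 44.5) in high and from 0 to 19379 CPM (median 171.05) in low cells (log2 ratio -4.57), and Tff2 from 0 to 1728 CPM (median 37.1) in high and from 4.97 to 4931 CPM (median 245) in low cells (log2 ratio -2.63). For Tff1 a few low cells carried much of the difference: without the same 6 low cells its log2 ratio was -2.21. That of Tff3 was then -3.91, and that of Tff2 was -2.70, close to its value with all cells. Over whole cells, the gastric list had medians of 441 CPM in high and 2316 CPM in low cells. Of its 8 tested genes 3 were lower (37.5%), with a median log2 ratio of -4.19, or -1.18 without those 6 cells. Its members Gkn1, Gkn2 and Muc5ac had pooled log2 ratios of -5.41, -5.41 and -4.67, but their medians were not past the limit. Without those cells their ratios were -0.16, 0.03 and 0.04. The log2 ratio of Tff1 was -5.05 in cells below and -0.73 in cells at or above 1000 CPM of the G2/M list. Those of Gkn1 (-6.51 and 0.32) and Gkn2 (-6.54 and 0.52) split likewise. The parts of the G2/M level and of the low cells rich in gastric transcripts were not separated and were not tested.

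Sprr2a1, a small proline-rich gene of the cornified envelope, was the 1 lower gene of 4 tested squamous and basal-type genes, and Ivl (-0.90), Perp (-0.14) and Sfn (0.10) were within the limit. Sprr2a1 ranged from 15.2 to 1499 CPM (median 91.4) in high and from 58.5 to 24896 CPM (median 385) in low cells (log2 ratio -3.40, and -1.77 without those 6 cells). Sprr2a2 and Sprr2a3 had log2 ratios of -3.94 and -2.75. These 3 are near-identical copies, and how the counting divided reads between them is uncertain. Oasl1, a member of the interferon-induced 2′-5′ oligoadenylate synthetase family, ranged from 0 to 130.8 CPM (median 0) in high and from 0 to 1381 CPM (median 24.95) in low cells (log2 ratio -3.20), although of 6 tested interferon and antigen presentation genes none was lower and 1, Ifitm3, was higher (1.62). The cytochrome P450 gene Cyp2s1, the vesicle protein gene Sytl2, AA467197 and Gm3336 had log2 ratios of -2.80, -2.77, -3.24 and -2.54. Mcpt1 and Mcpt2, proteases known from mucosal mast cells, had log2 ratios of -2.59 and -2.63, and were detected in 31 and 35 of the 40 low cells; immune markers were near 5 CPM in both sets (above).

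Some glutathione transferases were among the lower genes. Gsta1 (ENSMUSG00000074183, chr9:78230656-78242684, GRCm38) conjugates glutathione to electrophiles and ranged from 7.58 to 1605 CPM (median 131.5) in high and from 38.7 to 7351 CPM (median 1277) in low cells. Pooled levels were 270.3 CPM (258 to 283) in high and 1703 CPM (1672 to 1735) in low cells, a log2 ratio of -2.63, and the high cell had more in only 10.2% of pairs. Its ratio stood at -2.21 without the 6 cells named above. Gm3776, a close copy of Gsta1, had a log2 ratio of -2.72, and division of reads between the copies is uncertain. Gsta4 and Gstp1 had log2 ratios of -1.20 and -1.01. The list of NRF2 and glutathione genes as a whole had 2 lower of 11 tested and a median of -0.26, with 3 of the 11 above 0. Its members Slc7a11 and Gclc had pooled log2 ratios of -1.37 and -1.08, but their medians were not past the limit. Nqo1, a classic NRF2 target, was below the minimum level.

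**Figure D5:**
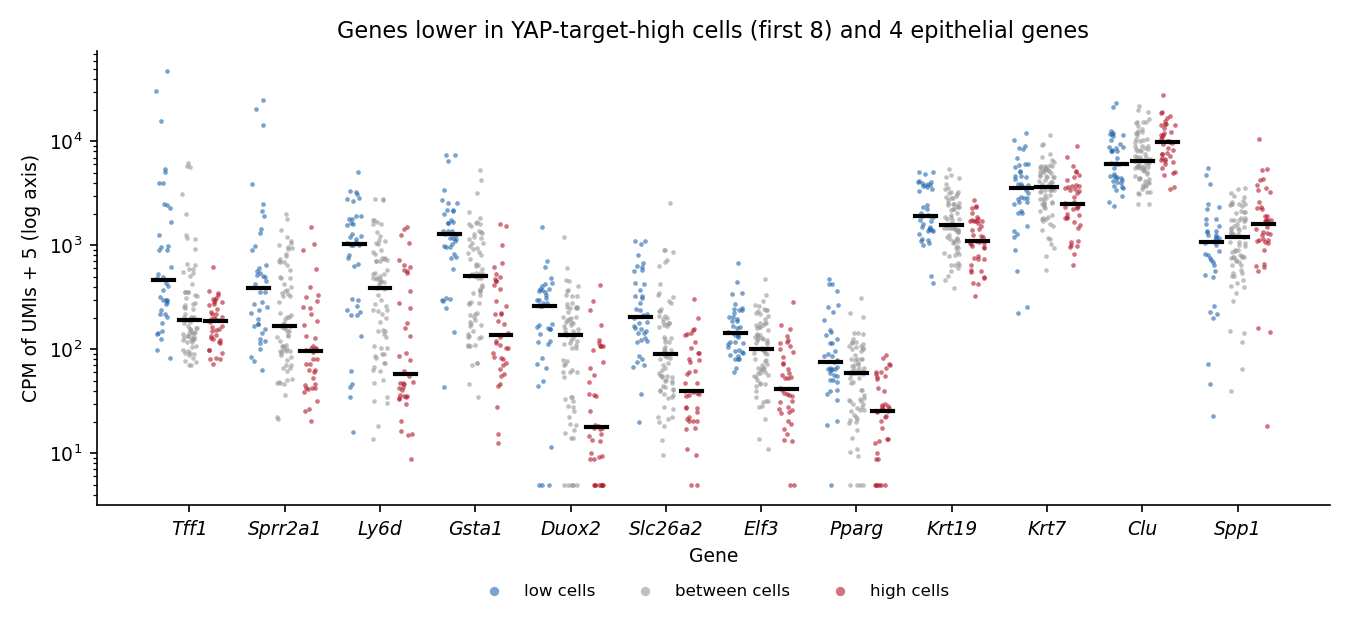
Levels per cell, on a log axis of CPM plus 5, of 8 genes that were lower in high cells (Tff1 to Pparg) and of 4 epithelial genes that did not pass the limit (Krt19 to Spp1), for the 40 low (blue), 75 between (grey) and 40 high (red) cells, with bars at the medians. For Tff1 and Sprr2a1, 3 low cells lie far above the others, whereas for Gsta1 and Ly6d most low cells are above the median of the high cells.

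Ly6d (ENSMUSG00000034634, chr15:74762056-74763620, GRCm38) ranged from 3.79 to 1481 CPM (median 53.3) in high and from 11.1 to 5122 CPM (median 1033) in low cells, with pooled levels of 255 CPM (243 to 267) in high and 1261 CPM (1234 to 1288) in low cells. The transcription factor Elf3 (ENSMUSG00000003051, chr1:135253575-135258568, GRCm38), an ETS factor of differentiated epithelia, ranged from 0 to 283 CPM (median 36.8) in high and from 55.4 to 666 CPM (median 136.97) in low cells, a log2 ratio of -1.34. It was the 1 lower gene of 8 foregut and pancreas transcription factors (median -0.23). In cells with at least 1000 CPM of the G2/M list the Elf3 log2 ratio was -0.74, short of the limit. Further lower genes, chosen after their values were seen, were the hydrogen peroxide-producing oxidase Duox2 (log2 ratio -2.11) and its maturation factor Duoxa2 (-2.26). The nuclear receptor Pparg (-1.86), the sulfate transporter Slc26a2 (-2.28) and the lipid transfer protein Stard10 (-1.02) belonged to the same direction. Stard10 had the smallest share of pairs with more in the high cell, 9.81%.

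Cell cycle lists had no gene past the limit. Of 20 tested G2/M genes the median log2 ratio was -0.38 and of 19 S phase genes -0.19. Mki67 ranged from 0 to 488 CPM (median 19.7) in high and from 0 to 859 CPM (median 21.7) in low cells (log2 ratio -0.60), and Top2a had a log2 ratio of -0.39. All 14 tested cholesterol synthesis genes had log2 ratios below 0 (median -0.60), while 4664 of all 8043 tested genes were above 0. Only Lss, lanosterol synthase, passed the limit (-1.03). Insig1 had a pooled log2 ratio of -1.34, but its median was not past the limit. No gene passed the limit among 10 tested genes of the unfolded protein and amino acid response (median -0.18), 15 of glycolysis and hypoxia (-0.16) and 84 cytosolic ribosomal protein genes (-0.05). The Notch pathway list had 3 tested genes, and none passed the limit. Jag1 of that list (1.16) and Ndrg1 of the glycolysis and hypoxia list (-1.52) had pooled ratios past 2, but their medians were not past the limit. The duct list had 1 higher gene, Pkhd1 (1.06), which encodes a protein of the primary cilium, and 2 lower genes, Cyp2s1 and Gsta4, of 13. The 15 tested acinar genes had a median of -4.90, which was -0.22 without the single enzyme-rich low cell. The carboxypeptidase gene Cpa1 still had a log2 ratio of -2.45 then, and 0.03 without the 5 gastric-rich cells as well.

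The G2/M level of the cells moved with many of these ratios, and its part was not tested. Of 68 higher or lower genes among those named, 67 kept their direction in cells with at least 1000 CPM of the G2/M list, but 53 kept a pooled ratio of 2 there. Besides Cxcl2, Elf3, Tff1, Tns1 and Bbc3 (above), log2 ratios in those cells were 0.94 for Tead2, 0.78 for Amotl1, 0.998 for Map4k4, 0.91 for Sparc, 0.96 for Cdh6, 0.90 for Csrnp1 and 0.54 for Pkhd1. For the lower genes they were -0.91 for Sprr2a3, -0.76 for Lss and -0.86 for Gstp1. In cells with less of the G2/M list, 66 of the 68 kept a ratio of 2, and Cldn4 (0.98) and Etv4 (0.95) did not. Without the 6 low cells, 65 kept it, and Etv4, Gstp1 and Pkhd1 did not.

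For 97.7% of the higher and 98.4% of the lower genes, the pooled level of the 75 cells between the limits lay between those of the high and low cells. These genes were chosen for a difference between the ends, so this was largely set by the choice. A pooled level also does not tell graded cells from a mix of cells with high and low levels. Over all kept cells the median rho with the rule sum was 0.41 for the higher and -0.40 for the lower genes, which is a description of genes chosen at the ends of the same scale. Cnn3 had medians of 30.3, 101.1 and 201 CPM in low, between and high cells, and Gsta1 1277, 497 and 131.5 CPM. Lamb1 was less even, with medians of 0, 7.58 and 78.5 CPM. A rule sum without Ankrd1, with 40 cells taken at each end, shared 33 high and 36 low cells with the sets above and gave 236 higher and 110 lower genes, of which 81.4% and 87.3% were also called with the full rule.

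Within the 40 high cells the genes outside the rule did not all go together. Fn1 levels followed those of Wnt7a (rho 0.75), Lamb1 (0.66) and Thbs1 (0.63), and ran against those of Gsta1's copy Gm3776 (-0.68). Lamb1 ran against Gsta1 (-0.66). Edn1 had rho of 0.01 to Fn1, 0.03 to Lamb1, -0.05 to Wnt7a and 0.22 to Thbs1. These pairs were picked out of 561 pairs of genes outside the rule after their values were seen, share each cell's total and depth, and carry no test.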

How the data were processed

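RNA of 179 single organoid cells was measured by Smart-seq3, per the labels' protocols. The authors deposited raw UMI counts and read counts, 1 row per cell and 32100 Ensembl identifiers, as whole numbers with no normalization. Per the submitters' processing notes, STAR and featureCounts were used with GRCm38 (mm10), without version numbers. The collapsing of molecules, the assignment of reads to genes and any use of strand are not given in the sources used here. Reads of near-identical or overlapping genes may therefore be divided unevenly.

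Rows were matched to samples by name. Symbols, positions and biotypes came from GENCODE M21, with a symbol for 31985 identifiers and none for 115. Promoter windows came from RefSeq (GRCm38.p6). No doublet caller was run, since each sample is labelled as 1 cell.

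The rule was applied to UMIs of nuclear and mitochondrial genes together. Pooled levels are summed UMIs of a set per 1000000 (CPM), with exact 95% Poisson intervals. Ratios had 5 CPM added. Counts of higher and lower genes used the 20 CPM minimum, a ratio of 2 in both pooled and median levels, and left out the 10 rule genes and 36 mitochondrial genes. They gave 220 higher and 122 lower genes. The rule kept 155 cells. Shares of cells used cells thinned to 40000 UMIs. The counting procedure was tested on simulated data.

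Named genes are the rule genes; the 15 highest and 15 lowest ratios among counted genes that also passed 1.5 the same way in cells numbered up to 96 and from 97; up to 8 members with the highest levels of the 2 lists of YAP factors and Hippo regulators; the 4 largest ratios of each other list; and Yap1, Wwtr1, Tead2, Tead3, Tead4, Clu, Krt7, Krt19, Spp1, Mki67 and Top2a. Not all of these genes are given in the text. Other members of the lists that passed the limit were named after their values were seen, as were a few genes said to be so in the text. A gene that passed the limit is counted but not reported here by name. The members, the 34 lists and the rules were chosen with earlier results of these data known.

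Alternatives covered reads, other ratios, filters, totals and limits, scran size factors, thinning, depth and number ranges, cell cycle level and single cells. Size factors came from scran 1.30.0 under R 4.3.3. Other steps used scipy 1.17.1, pandas 2.3.3, numpy 2.4.6 and matplotlib 3.10.9 under Python 3.11.15.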

Additional observations from a re-analysis of the deposited data

How the results depend on the processing

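With 2.74% of the tested genes higher and 1.52% lower in high cells, counts or shares moved by more than 1.5 times in these settings. With the pooled level alone 2.52% (203 genes) were lower, and with the median alone 4.65% (374) were higher and 2.62% (211) lower. A ratio of 1.5 gave 8.07% (649) and 3.87% (311), a ratio of 3 gave 0.783% (63) and 0.559% (45), and 20 CPM added gave 1.42% and 0.734% (59). More genes were tested with a filter of 5 CPM, where 2.79% (337) were higher, and with no filter, where 1.24% (338) were higher and 0.605% lower. Cells numbered from 97 gave 2.47% (196) lower. Cells with under 1000 CPM of the G2/M list (24 high, 21 low) gave 4.76% (376) and 2.82% (223), and those with at least 1000 CPM (16 and 19) gave 1.70% and 0.95% (75). In that last setting Cxcl2 (log2 ratio -0.22) was the 1 gene of 68 higher or lower named genes to reverse. The medians of the acinar (0.043), injury (0.20), keratin and junction (0.11) and duct (-0.30) lists also reversed, as did named genes that had not passed the limit, such as Spp1 (-0.01), Hes1 (-0.17), Trp53inp1 (-0.32), Krt20 (0.30), Cldn18 (0.11), Gkn1 (0.32), Gkn2 (0.52), Acta1 (0.20) and Cpa1 (0.05). In other settings, list medians that changed sign were within 0.5 of 0 to begin with (Wnt, EGF, keratin, duct, S phase and G2/M lists). The causes were not tested. The other settings stayed within 1.5 times, for example reads (2.95% and 1.49%), scran size factors (2.39% and 1.78%) and thinning (3.24% and 1.80%). For the gene counts, leaving out the enzyme-rich cell was planned (2.59% and 1.595%) and leaving out also the 5 gastric-rich cells was chosen after seeing the data (2.52% and 1.22%), as were both settings for list medians and named genes.

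All cells are from 1 group with no named animal or culture, so how far the sets differ between animals was not tested. Depth limits genes near 20 CPM, which in a cell of 40000 UMIs is less than 1 UMI. No paired analysis was possible because no sample has a numbered partner in another group.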

Other observations

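Some genes outside the lists and the named genes also had higher levels in high cells, and were chosen after their values were seen. Sorbs2, an adaptor between actin and membrane, ranged from 41.2 to 1958 CPM (median 327) in high and from 0 to 230.4 CPM (median 55.98) in low cells, and 26 high cells exceeded every low cell. Litaf, a regulator of endosomes, ranged from 158.7 to 1047 CPM (median 432) in high and from 0 to 480.3 CPM (median 157.99) in low cells. Igfbp7, a secreted binding protein, ranged from 157.7 to 1936 CPM (median 659.6) in high and from 0 to 1245 CPM (median 99.9) in low cells. For these the log2 ratios were 2.35, 1.31 and 1.90. Cp, the copper-carrying plasma protein ceruloplasmin, ranged from 0 to 7879 CPM (median 1506) in high and from 0 to 4203 CPM (median 113.1) in low cells (log2 ratio 1.88), and Foxj1, a regulator of motile cilia, from 0 to 370.4 CPM (median 75.7) in high and from 0 to 323 CPM (median 4.93) in low cells (log2 ratio 2.08). A low cell held 40.9% of the low set's Foxj1 UMIs. Bcl2l1, which encodes the survival protein BCL-XL, had a log2 ratio of 1.15, and Trp53, which encodes p53, one of 1.05.

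Other lower genes outside the lists were likewise chosen after their values were seen. Anxa10, a gastric annexin, had a log2 ratio of -2.31, the galectin Lgals4 one of -2.24, and the adhesion protein Ceacam1 one of -1.64. The bile acid receptor Nr1h4 had a log2 ratio of -1.15 and the serine protease Tmprss2 one of -1.08.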
